A study of Rattus norvegicus with 8 samples.

Results

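Alcohol dehydrogenases and aldehyde dehydrogenases were followed in rat liver through 10 genes chosen by name: Adh1, Adh4, Adh5, Adh7, Aldh1a1, Aldh1a7, Aldh1b1, Aldh2, Aldh3a2 and Aldh9a1. Of these, 9 had a probe whose accession matched the gene, with 1 probe and 1 spot each, and Aldh1a7 was not analysed here. All 9 were well above background on all 8 arrays, and they were tested among 25128 features made from 41012 probes. Adh1 is listed as Adh1c in the current RefSeq gene table, which gives Adh1 as a synonym.

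The study compared 4 Eucommia samples with 4 Control samples, all from male Wistar/ST rats. Eucommia rats ate a high-fat diet, drank high-fructose water and received an extract of Eucommia ulmoides leaves as their drinking water for 5 weeks. Control rats had the same diet and fructose water without the leaf extract, so both groups carried the dietary load and no group ate a standard diet. The ages of the rats, the dose of the extract and the composition of the diet are not given in the sources used here. Liver RNA (500 ng of total RNA per array) was labelled with Cy3 and hybridised to single-colour Agilent arrays. Nothing beyond the sample numbers says that each array came from a different animal, so the p-values speak only of sample-to-sample spread, which may be technical.

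Alcohol dehydrogenases oxidise alcohols such as ethanol and retinol to aldehydes with NAD as the electron acceptor, and aldehyde dehydrogenases oxidise the aldehydes on to acids. Hepatocytes carry out most of the body's ethanol oxidation through these enzymes, in the cytosol for the alcohol step and mainly in mitochondria for acetaldehyde. The same families also act on formaldehyde, retinaldehyde, fatty aldehydes and the aldehyde precursors of carnitine.

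Each value is the log2 of the background-subtracted signal minus the array's 75th percentile, so 0 is the signal at that percentile, and a level can be compared between arrays for a probe but not between probes. Arrays correlated at 0.990 to 0.994 within the Eucommia group and at 0.985 to 0.989 within the Control group, against 0.962 to 0.973 between the groups. All Eucommia arrays lay on one slide and all Control arrays on another, and the recorded scan dates split in the same way. Slide, scan and treatment therefore cannot be told apart in any difference given here. The share of spots well above background was 69.3% to 71.9% on Eucommia arrays and 58.9% to 61.5% on Control arrays, and no spot was saturated. Over all features, limma called 4612 higher in Eucommia (18.4%) and 1568 lower (6.24%) at an adjusted p under 0.05. Among the 9262 features with a mean log2 signal above 0, it called 364 higher (3.93%) and 553 lower (5.97%). The share of calls that were higher was 74.6% with this scaling, 58.7% with quantile normalization, 59.7% with normexp background correction and quantile normalization, and 31.9% with median centring, under which the median over all features became -0.24 log2 units, against 0.02 with this scaling. The hepatocyte markers were above background on all arrays for 8 of 8 genes, and their summed log2 level was 12.2 to 12.4 in Eucommia livers and 12.4 to 12.6 in Control livers.

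Aldh1b1 was the only member called between the groups with this scaling. Of the 9 measured members, limma called 1 higher in Eucommia livers and 0 lower, beside 18.4% and 6.24% of all features. At an unadjusted p under 0.05 there were 2 higher (Aldh1b1 and Aldh1a1) and 0 lower, beside 23.1% and 12.7% of all features. Aldh1b1 encodes a mitochondrial aldehyde dehydrogenase that oxidises acetaldehyde and other short aldehydes and is known from stem and progenitor cells of several tissues. Its log2 levels were -0.02, -0.06, -0.45 and -0.10 on the Eucommia arrays, against -1.70, -1.48, -1.46 and -1.39 on the Control arrays. Every Eucommia array was higher than every Control array, and each group spread over less than the gap between them. The group means were -0.16 ± 0.20 in Eucommia livers and -1.51 ± 0.13 in Control livers (SD, n = 4 each). The log2 fold change was 1.35 ± 0.12 (SE), with a 95% interval of 1.07 to 1.63, a 2.56-fold higher level and a limma adjusted p of 5.53e-05. Groups that did not overlap were found for 1 of 9 members, beside 28.6% of all features (7180 of 25128). Among the 9262 features with a mean log2 signal above 0, the groups did not overlap for 1605.

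The level of Aldh1b1, at a mean log2 signal of -0.83, lay in a range where calls in this direction were frequent. Of the 5612 features with a mean between -2 and 0, 924 (16.5%) were called higher in Eucommia, and 280 of them were called with a log2 fold change at least as large as that of Aldh1b1. Over all features, 1958 were called higher with a change at least that large. Markers of stomach and oesophagus epithelium also stood higher: 3 of the 4 tested, of 7 on the array, were called higher (Pgc by 1.39 and Krt14 by 1.57 on the log2 scale, and Gkn1, which was above background on 4 Eucommia arrays and 0 Control arrays), and Gkn2 and Krt4 were above background on no array. The summed log2 level of that list was 2.17 to 2.33 in Eucommia livers and 0.63 to 1.02 in Control livers. Pgc alone measured 1.93 to 2.14 and 0.41 to 0.75, so that sum rested mostly on 1 probe. Of 6 pancreatic acinar markers, 3 were tested and 1 was called higher (Ctrb1, by 1.79), and Prss1 was above background on no array. Cpb1 (-0.21, limma adjusted p = 0.669) and Pnlip (0.64, 0.515) were not called. The summed level was 1.22 to 1.83 in Eucommia livers and 0.32 to 0.72 in Control livers. Ctrb1 alone measured 0.91 to 1.61 in Eucommia livers and -0.61 to -0.28 in Control livers. In the other marker lists, Cdh5 of endothelial cells (1.01), Cd3d of T cells (0.85) and Actn3 of muscle (0.91) were called higher. The other tested markers of these lists were not called: Kdr (-0.26), Lyve1 (-0.17), Pecam1 (1.09), Cd3e (-0.53), Cd3g (-0.04), Nkg7 (0.09) and Mylpf (-0.29). Of these, Pecam1 was above background on 4 Eucommia arrays and 0 Control arrays, so its fold rests on Control signals not above background. Acta1, Ckm, Myh4 and Tnnt3 of muscle were above background on no array. Lgr5 and Cftr were also called higher, but were above background on 4 Eucommia arrays and 0 Control arrays. Like Gkn1, they were kept for testing through their Eucommia arrays alone, which favoured a call of higher. Epcam (-0.52) and Tf (-0.55) were called lower. All 6 Kupffer cell and macrophage markers had negative log2 fold changes (median -0.58) with limma adjusted p-values of 0.0653 to 0.319, and their summed level was 5.45 to 6.09 in Eucommia livers and 5.78 to 6.49 in Control livers. The part of these markers, of the slide and of the share of detected spots in the Aldh1b1 difference was not tested. In bulk liver, fewer cells of a type and less RNA per cell cannot be told apart.

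Among 5043 tested genes with a symbol and a mean log2 level above 0, the profiles most like that of Aldh1b1 over the 8 arrays were those of Prb3, Mfsd9 and Slc41a1. The measure was the root mean square difference between profiles centred on their own means, which was 0.105, 0.125 and 0.135 log2 units for these genes against a median of 0.729 over all genes compared. All 3 genes had higher signals in Eucommia livers, with log2 fold changes of 1.35, 1.12 and 1.30. Since the profiles include the group difference, the likeness rests on it.

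**Figure D1:**
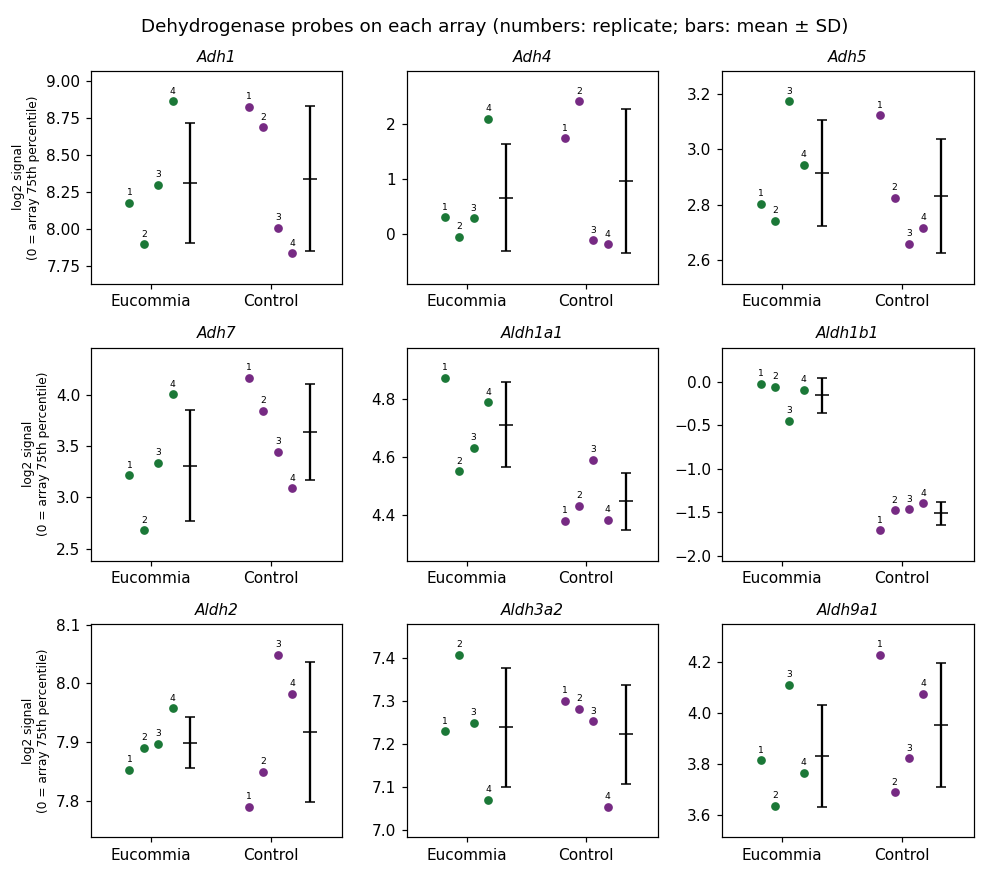
Log2 signal of each measured dehydrogenase probe (vertical axes, 0 at the array's 75th percentile, scales differ between panels) on each Eucommia array and each Control array; numbers are replicates and bars are the mean ± SD of 4 arrays. The groups separate for Aldh1b1, at -0.45 to -0.02 in Eucommia and -1.70 to -1.39 in Control, and overlap in the other panels.

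The cytosolic Aldh1a1 enzyme converts retinaldehyde to retinoic acid and is abundant in liver. It measured 4.87, 4.55, 4.63 and 4.79 on the Eucommia arrays, against 4.38, 4.43, 4.59 and 4.38 on the Control arrays. The Eucommia arrays were high for the most part, but Control 3 lay above Eucommia 2, so the groups overlapped. The log2 fold change was 0.26 ± 0.10 (SE), with a 95% interval of 0.03 to 0.50, an unadjusted limma p of 0.0316 and an adjusted p of 0.100. The call depended on the scaling: Aldh1a1 was called higher under quantile normalization (0.32, limma adjusted p = 0.0368), normexp (0.33, 0.0166), normexp with quantile normalization (0.38, 0.00699) and cyclic loess (0.33, 0.0349). With median centring the fold change was 0.00 and was not called. The mean level was 4.71 ± 0.15 in Eucommia livers and 4.45 ± 0.10 in Control livers (SD, n = 4 each).

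Aldh2, the mitochondrial enzyme that clears most of the acetaldehyde made from ethanol, had the smallest mean of the group SDs among the members. Its levels were 7.85, 7.89, 7.90 and 7.96 on the Eucommia arrays, against 7.79, 7.85, 8.05 and 7.98 on the Control arrays. The Eucommia arrays all lay inside the range of the Control arrays. The log2 fold change of -0.02 ± 0.09 (SE) had a 95% interval of -0.22 to 0.19 and a limma adjusted p of 0.910, which leaves room for a change of up to that size in either direction. Under median centring alone, Aldh2 was called lower, at -0.28 with a limma adjusted p of 0.0395.

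Aldh3a2, the fatty aldehyde dehydrogenase of the endoplasmic reticulum, whose loss causes Sjögren-Larsson syndrome in humans, measured 7.23, 7.41, 7.25 and 7.07 on the Eucommia arrays, against 7.30, 7.28, 7.25 and 7.05 on the Control arrays. The lowest array of each group stood close to that of the other, and the groups overlapped. Its log2 fold change was 0.02 ± 0.10 (SE; 95% interval -0.22 to 0.25, limma adjusted p = 0.928). Aldh9a1 oxidises an aldehyde intermediate of carnitine synthesis and aminoaldehydes from polyamines. It measured 3.81, 3.64, 4.11 and 3.76 on the Eucommia arrays, against 4.23, 3.69, 3.82 and 4.07 on the Control arrays. The groups overlapped over most of their ranges, with a log2 fold change of -0.12 ± 0.15 (SE; 95% interval -0.46 to 0.22, limma adjusted p = 0.608).

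Adh5, the class III enzyme, oxidises the glutathione adduct of formaldehyde and reduces S-nitrosoglutathione. It measured 2.80, 2.74, 3.17 and 2.94 on the Eucommia arrays, against 3.12, 2.83, 2.66 and 2.72 on the Control arrays. Eucommia 3 and Control 1 were the highest arrays of their groups, and the groups overlapped. The log2 fold change was 0.09 ± 0.14 (SE; 95% interval -0.23 to 0.40, limma adjusted p = 0.705).

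Adh1, Adh4 and Adh7 had wide ranges within both groups. Adh1 is the class I enzyme that carries most ethanol oxidation in rodent liver. It measured 8.18, 7.90, 8.30 and 8.86 on the Eucommia arrays, against 8.83, 8.69, 8.01 and 7.84 on the Control arrays. Eucommia 4, Control 1 and Control 2 were the 3 highest arrays, the other 5 ran from 7.84 to 8.30, and the groups overlapped.

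Adh4, the class II enzyme of liver, acts on retinol and longer alcohols and on ethanol at high concentration. It measured 0.31, -0.05, 0.28 and 2.09 on the Eucommia arrays, against 1.74, 2.41, -0.11 and -0.18 on the Control arrays. The same 3 arrays stood apart from the other 5, by 1.43 log2 units between the third and the fourth highest array. Adh7, the class IV enzyme, is best known from stomach and oesophagus epithelium, where it oxidises retinol and ethanol. It measured 3.22, 2.68, 3.34 and 4.01 on the Eucommia arrays, against 4.16, 3.84, 3.44 and 3.09 on the Control arrays. Its 3 highest arrays were again Control 1, Eucommia 4 and Control 2, with a step of 0.40 to the fourth, against a step of 0.39 for Adh1. The part of stomach or oesophagus RNA in the Adh7 signal was not tested.

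None of these 3 genes was called between the groups. The log2 fold change was -0.03 ± 0.27 for Adh1 (SE; 95% interval -0.65 to 0.59, limma adjusted p = 0.951). For Adh4 it was -0.30 ± 0.68 (SE; 95% interval -1.85 to 1.24, limma adjusted p = 0.790), and it was 0.18 without Control 2 and -0.78 without Eucommia 4. For Adh7 it was -0.33 ± 0.31 (SE; 95% interval -1.02 to 0.37, limma adjusted p = 0.498), and it ran from -0.56 without Eucommia 4 to -0.12 without Eucommia 2. The intervals are wide, and that of Adh4 holds decreases larger than the increase measured for Aldh1b1.

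**Figure D2:**
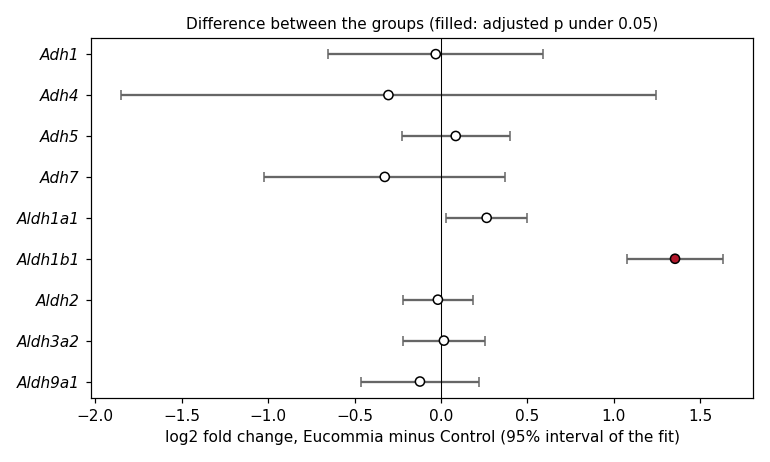
Log2 fold change (horizontal axis, Eucommia minus Control) of the 9 measured members with its 95% interval from the limma fit of all features; the filled point is past an adjusted p of 0.05. Aldh1b1 lies at 1.35, and the intervals of Adh1, Adh4 and Adh7 are wider than those of Aldh2 or Aldh3a2.

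The spread within groups separated the members as well. The mean of the 2 group SDs was 1.14 for Adh4, 0.507 for Adh7 and 0.447 for Adh1, which put them at the 99.9th, 98.4th and 97.7th percentile of the features with a mean log2 signal above 0. It was 0.222 for Aldh9a1, 0.199 for Adh5, 0.166 for Aldh1b1, 0.127 for Aldh3a2, 0.123 for Aldh1a1 and 0.081 for Aldh2, between the 12.8th and the 82.0th percentile of the same features, which do not include Aldh1b1, whose signal was lower. Over the 9 members the median log2 fold change was -0.02 and the median of its size 0.122, beside 0.02 and 0.231 over all features and -0.04 and 0.133 over features with a mean log2 signal above 0.

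Adh1, Adh4, Adh5 and Adh7 are neighbours on rat chromosome 2, where RefSeq (GRCr8) lists the genes in the order Adh7, Adh1c, Adh6a, Adh1-ps1, Adh6, Adh4 and Adh5. The following look at the whole cluster was chosen after the members' values were seen. Adh6, an alcohol dehydrogenase that lies beside Adh4, had the widest range. It measured -4.70, -6.17, -5.74 and 2.64 on the Eucommia arrays, against 4.14, 4.90, -6.17 and -6.17 on the Control arrays. Eucommia 4, Control 1 and Control 2 were again the high arrays, 7.34 log2 units above the fourth (4.22 after normexp and 4.17 after normexp with quantile normalization), and the probe was well above background on these 3 and on Eucommia 1. Since 4 arrays were not above background, no fold change between the groups is given for Adh6 (limma adjusted p = 0.585).

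Adh6a was above background on 0 arrays, and Adh1-ps1, a transcribed pseudogene, had no matched probe. Adh5, at the end of the cluster, had Control 1, Eucommia 3 and Eucommia 4 as its highest arrays, with a step of 0.12 to the fourth. Of the flanking genes above background on all 8 arrays, Mttp and Trmt10a before the cluster and Metap1 and Eif4e after it shared 1 of their 3 highest arrays each with Adh4, and Adh5 shared 2. Over all features, 497 of 25128 (1.98%) had the same 3 arrays highest as Adh4. Adh7, Adh1, Adh6 and Adh4 had these 3 arrays highest under quantile normalization, median centring, normexp, normexp with quantile normalization and cyclic loess too, and Adh5 under none of them. The 3 arrays come from both groups and both slides, and what sets them apart was not tested.

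**Figure D3:**
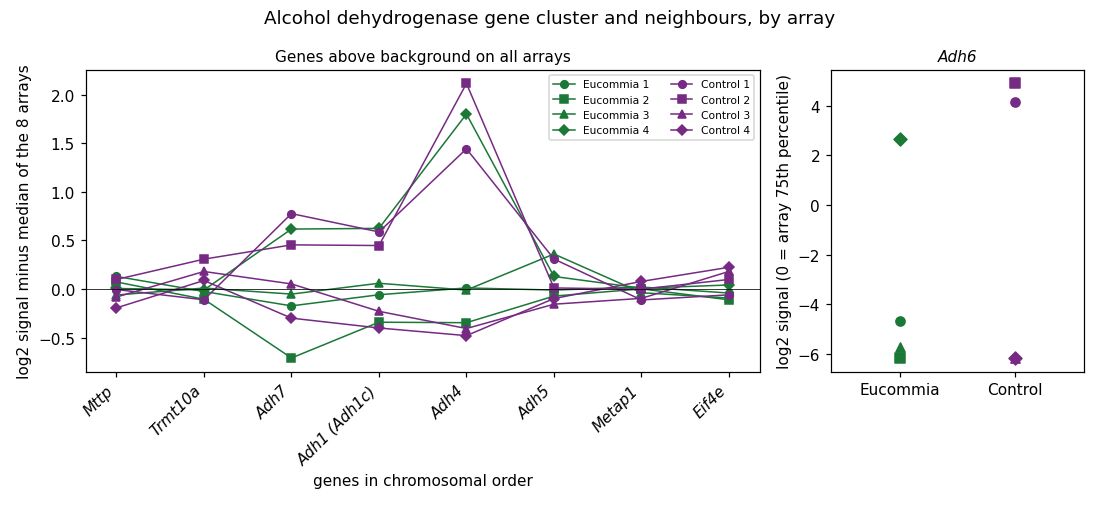
Left, log2 signal minus the median of the 8 arrays (vertical axis) for genes of the alcohol dehydrogenase cluster and their neighbours in chromosomal order, 1 line per array; right, log2 signal of Adh6 by group. Eucommia 4, Control 1 and Control 2 stand above the other arrays for Adh7, Adh1, Adh4 and Adh6, and not for Mttp, Metap1 or Eif4e.

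The promoters of the cluster genes are shown because Adh7, Adh1, Adh6 and Adh4 had the same 3 highest arrays, while Adh5 shared 2 of them. Promoters of 8 of the 9 measured members were in the RefSeq table (GRCr8), each from 250 bases before to 50 after the gene's start. Both strands were searched for 3 motifs. The TATA box TATAAA occurred in 14.2% of all 33469 promoters of that length, the CCAAT box in 37.5% and the GC box GGGCGG in 33.1%. No motif overlapped another. Capitals mark the matches as they read on the printed strand, so a match on the opposite strand reads TTTATA where the motif is TATAAA, reads ATTGG where it is CCAAT, and reads CCGCCC where it is GGGCGG. All 5 genes lie on the plus strand.
Adh7 promoter, chr2:229421875-229422174, plus strand: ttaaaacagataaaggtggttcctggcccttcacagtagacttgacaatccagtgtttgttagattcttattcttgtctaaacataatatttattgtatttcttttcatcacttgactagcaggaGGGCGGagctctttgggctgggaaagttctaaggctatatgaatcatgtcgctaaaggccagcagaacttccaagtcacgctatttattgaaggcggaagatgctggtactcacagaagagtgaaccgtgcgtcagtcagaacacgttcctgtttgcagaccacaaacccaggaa
Adh1c promoter, chr2:229470453-229470752, plus strand: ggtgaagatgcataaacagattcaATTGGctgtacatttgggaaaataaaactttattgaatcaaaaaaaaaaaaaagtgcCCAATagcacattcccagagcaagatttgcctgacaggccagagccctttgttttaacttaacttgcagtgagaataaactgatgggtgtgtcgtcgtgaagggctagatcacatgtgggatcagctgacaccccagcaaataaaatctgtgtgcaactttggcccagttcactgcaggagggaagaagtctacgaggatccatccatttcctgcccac
Adh6 promoter, chr2:229576386-229576685, plus strand: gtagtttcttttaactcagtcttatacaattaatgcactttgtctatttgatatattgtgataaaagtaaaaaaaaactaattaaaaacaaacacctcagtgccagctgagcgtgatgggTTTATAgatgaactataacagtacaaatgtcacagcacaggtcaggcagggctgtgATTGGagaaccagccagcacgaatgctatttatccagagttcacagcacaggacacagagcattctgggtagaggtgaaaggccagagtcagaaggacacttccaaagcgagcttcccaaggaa
Adh4 promoter, chr2:229621842-229622141, plus strand: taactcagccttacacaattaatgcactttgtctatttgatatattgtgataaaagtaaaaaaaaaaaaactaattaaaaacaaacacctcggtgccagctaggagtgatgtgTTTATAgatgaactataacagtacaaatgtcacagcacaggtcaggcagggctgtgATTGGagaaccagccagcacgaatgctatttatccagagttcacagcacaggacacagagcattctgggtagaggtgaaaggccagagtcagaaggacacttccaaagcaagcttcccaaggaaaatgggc
Adh5 promoter, chr2:229648307-229648606, plus strand: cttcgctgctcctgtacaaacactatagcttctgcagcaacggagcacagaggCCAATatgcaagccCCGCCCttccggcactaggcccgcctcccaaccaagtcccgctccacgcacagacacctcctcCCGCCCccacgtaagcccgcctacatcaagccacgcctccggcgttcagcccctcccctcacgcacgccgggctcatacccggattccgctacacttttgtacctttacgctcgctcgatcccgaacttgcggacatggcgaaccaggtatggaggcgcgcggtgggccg

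The Adh6 and Adh4 promoters were nearly the same sequence: in a local alignment, 281 of 293 columns were identical (95.9%). No other pair of these 5 promoters aligned over more than 66 columns. Both held TATAAA on the minus strand, at -130 from the start in Adh6 and at -137 in Adh4, and CCAAT on the minus strand, at -74 in Adh6 and at -81 in Adh4. Transcript and probe sequences were not used here, so how far the Adh6 or Adh4 probe measures RNA of the other gene was not tested, and the values of both are uncertain to that extent. Whether the Adh7 or Adh1 probe measures RNA of other genes of the cluster was not tested either.

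The Adh1c promoter held CCAAT at -169 on the plus strand and at -226 on the minus strand, and that of Adh7 held GGGCGG at -125. The Adh5 promoter differed in base composition, with 63.7% G and C and 28 CG pairs. Those of Adh7, Adh1c, Adh6 and Adh4 held 43.0%, 43.3%, 41.0% and 41.3% G and C and 7, 3, 3 and 2 CG pairs, beside medians of 51.7% and 7 over all promoters. The Adh5 promoter also held CCAAT at -197 and GGGCGG on the minus strand at -183 and -120.

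Over all features, limma called 18.4% higher and 6.24% lower, and 23.1% and 12.7% had an unadjusted p under 0.05. Among features with a mean log2 signal above 0, it called 3.93% higher and 5.97% lower, and the lists hold genes above and below that level. These shares stand beside the counts of every list that follows, and no list was tested against them. Of the other aldehyde dehydrogenases, 9 of the 13 listed genes were on the array and 8 were tested. Limma called 0 in either direction, with 0 at an unadjusted p under 0.05 (median log2 fold change -0.08). The smallest p-values belonged to Aldh4a1, an enzyme of proline breakdown, and Aldh18a1, an enzyme of proline synthesis. Their log2 fold changes were -0.32 ± 0.15 and -0.50 ± 0.25 (SE; limma adjusted p = 0.163 and 0.187). Both depended on the scaling: Aldh18a1, above background on 4 Eucommia and 3 Control arrays, was called lower under quantile normalization (-0.75, limma adjusted p = 0.0443), median centring (-0.76, 0.0268) and cyclic loess (-0.73, 0.0446), and its smallest change over the alternatives was -0.07. Aldh4a1 was called lower under median centring (-0.58, limma adjusted p = 0.0191).

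Among other alcohol dehydrogenases and aldo-keto or carbonyl reductases, 14 of 16 were tested, 1 was called higher and 2 lower (median -0.12). Akr1d1, the steroid 5-beta-reductase of bile acid synthesis, averaged 4.38 ± 0.27 in Eucommia livers and 5.21 ± 0.39 in Control livers (SD, n = 4 each), a log2 fold change of -0.83 ± 0.21 (SE, limma adjusted p = 0.0195), and its other probe gave -0.44 (adjusted p = 0.0177). Adhfe1, a mitochondrial iron-dependent hydroxyacid-oxoacid transhydrogenase, fell by 0.72 on the log2 scale (SE 0.20, limma adjusted p = 0.0304), while its other probe gave -0.33 (adjusted p = 0.297). Cbr1, a cytosolic carbonyl reductase, rose by 0.48 (SE 0.13, limma adjusted p = 0.0255), and its other probe gave 0.36 (adjusted p = 0.0850). With 1 array left out, the folds stayed at -0.93 to -0.65 for Akr1d1, -0.85 to -0.61 for Adhfe1 and 0.39 to 0.57 for Cbr1, but some calls were lost. Akr1d1 was not called without Eucommia 2 (adjusted p = 0.0587) or Eucommia 4 (0.0567). Adhfe1 lost its call without Eucommia 1, Eucommia 2, Control 1 or Control 3 (0.0711 to 0.0836). Cbr1 lost its call without Eucommia 2, Eucommia 4, Control 2 or Control 4 (0.0562 to 0.0765). Cbr1 was also not called under median centring (0.22, limma adjusted p = 0.237), nor Adhfe1 with its probes averaged (-0.53, 0.0856).

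Genes of ethanol, acetate and formaldehyde handling beside the dehydrogenases numbered 10, of which 8 were tested, 1 was called higher and 0 lower by limma, with 1 each way at an unadjusted p under 0.05 (median -0.04). Cyp2e1, the cytochrome P450 that oxidises ethanol, had a log2 fold change of -0.11 (limma adjusted p = 0.696).

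The retinoid list bears on Aldh1a1, Adh1, Adh4 and Adh7, which act on retinaldehyde and retinol. Of 27 genes, 18 were tested, 2 were called higher and 1 lower (median -0.16). Rdh10, a retinol dehydrogenase, averaged -0.33 ± 0.02 in Eucommia livers and 0.16 ± 0.08 in Control livers (SD, n = 4 each), a log2 fold change of -0.49 ± 0.08 (SE, limma adjusted p = 0.00192) that was called in 22 of 22 alternatives. Several of these alternatives could not move its fold, since it had 1 probe above background on all arrays. Stra6, the membrane receptor for retinol-binding protein, was well above background on 4 Eucommia arrays and on 0 Control arrays. It was kept for testing through the Eucommia arrays alone, which favoured a call of higher. Its measured log2 fold change was 1.57 (limma adjusted p = 6.88e-04), with Control signals not above background. Stra6 was 1.54-fold higher when the Control level was set to the higher of its own signal and the lowest signal called above background. That setting is not a detection limit, so 1.54 is not a lower bound. Acta1, above background on 0 Control arrays, reached -4.06 there, against a Stra6 mean of -4.24 in Eucommia livers. Stra6 was not called after normexp correction (log2 fold change 0.10, adjusted p = 0.351). Crabp2, a retinoic acid carrier, rose by 0.55 (SE 0.16, limma adjusted p = 0.0313). With 1 array left out it stayed between 0.40 and 0.62, and it was not called without Eucommia 1, 2, 3 or 4 or Control 4 (adjusted p = 0.0553 to 0.0786). Its call was also lost under quantile normalization (limma adjusted p = 0.0681), median centring (0.116) and cyclic loess (0.0510).

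The fatty aldehyde, sphingosine and phytol list, around the substrate of Aldh3a2, had 14 of 16 genes tested, with 1 called higher and 1 lower (median -0.03). Hacl1, a peroxisomal lyase of phytanic acid breakdown, rose by 0.49 (SE 0.14, limma adjusted p = 0.0328), while its other probe gave -0.25 (adjusted p = 0.258). Pecr, a peroxisomal enoyl-CoA reductase, fell by 0.28 (SE 0.09, limma adjusted p = 0.0461). Hacl1 was called in 2 of 8 fits that left out an array (0.37 to 0.57) and Pecr in 1 of 8 (-0.33 to -0.25). Their adjusted p-values reached 0.0920 without Eucommia 2 and 0.104 without Control 4, respectively. Hacl1 also lost its call under median centring (limma adjusted p = 0.215) and with its probes averaged (0.598). Pecr lost its call under quantile normalization (0.0944), the percentile over detected probes (0.0793) and cyclic loess (0.136).

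Of the carnitine and polyamine list, around Aldh9a1, 7 of 10 genes were tested, 0 were called higher and 1 lower by limma, with 0 and 2 at an unadjusted p under 0.05 (median -0.27). It was Sat1, which acetylates polyamines, at -0.47 ± 0.13 (SE, limma adjusted p = 0.0278), which was not called without Eucommia 1, 3 or 4 or Control 2 or 4 (adjusted p = 0.0507 to 0.0712), with folds of -0.56 to -0.37 over the 8 fits that left out an array. All 14 genes for removal of lipid peroxidation aldehydes were tested, with Cbr1 called higher and 2 called lower (median -0.03). Xdh, the xanthine dehydrogenase, fell by 0.46 (SE 0.08, limma adjusted p = 0.00341) and was called in 22 of 22 alternatives. As for Rdh10, several of these could not move its fold. Gpx1, a glutathione peroxidase, fell by 0.46 (SE 0.13, limma adjusted p = 0.0281), and its other probe gave -0.19 (adjusted p = 0.323). Gpx1 was not called without Eucommia 1, 2 or 3 or Control 4 (adjusted p = 0.0518 to 0.0827), with folds of -0.54 to -0.36 over such fits. Its call was also lost under quantile normalization (limma adjusted p = 0.0783), normexp with quantile normalization (0.0587) and with its probes averaged (0.0971).

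**Figure D4:**
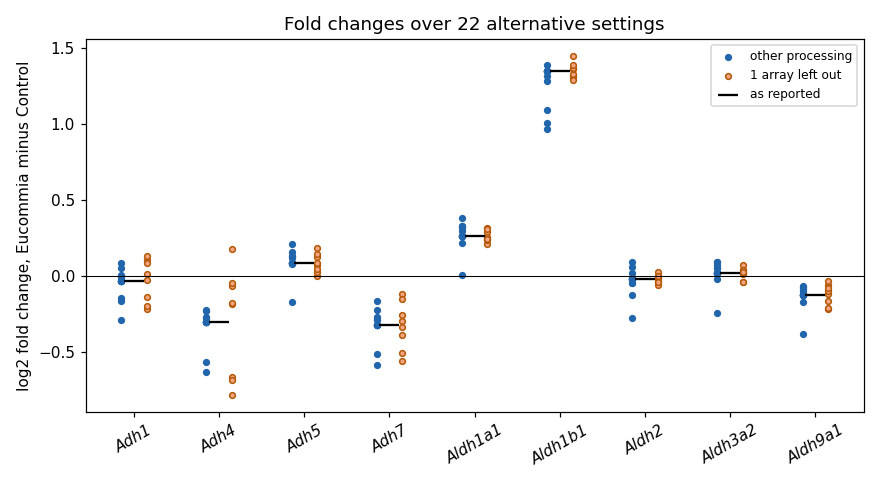
Log2 fold change (vertical axis, Eucommia minus Control) of each measured member as reported (line), under 14 other processing choices and with 1 of the 8 arrays left out. Aldh1b1 stays between 0.97 and 1.45, and the values of Adh1, Adh4, Adh5, Aldh2 and Aldh3a2 fall on both sides of 0.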

How the data were processed

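Liver RNA of 4 Eucommia and 4 Control samples was measured on single-colour Agilent arrays. Agilent Feature Extraction 10.1.1.1 produced the intensities in the deposited scanner files, as the submitters' processing notes and the file headers state. Per the file headers, background was subtracted and a spatial trend removed on every array by itself, and arrays were not put on a common scale. Flags of another kind in the same deposited files mark control spots, spots well above background and outlier spots. The series table deposited by the authors equalled the processed intensity at 100% of spots.

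The log2 of the processed signal was taken, less the 75th percentile of its array. Control and outlier spots were left out, and spots of a probe were averaged. A probe was kept if well above background on at least 4 arrays. Accessions were matched without versions to RefSeq gene names (GRCr8), which named 16336 of 41012 probes. A gene was its brightest probe, an unnamed probe was a feature of its own, and 25128 features were tested. The array design uses another build, so it gives no coordinates here. The 2 groups were tested against each other in limma 3.58.1 under R 4.3.3 (2-sided, Benjamini-Hochberg over all features, threshold 0.05), and the procedure was tested on simulated data. The number of arrays limits the precision.

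The members and the 7 gene lists were chosen with earlier results of these data known. Named genes were all members, up to 4 genes with the smallest p among those called in each list (or 2 where none was called), and the 3 genes with the profile most like a called member. A gene that this rule names is not reported here. Cyp2e1, the marker genes and the cluster neighbours of the members were named outside that rule, after their values were seen. The 11 marker lists served only as levels beside the results. Same-numbered samples did not deviate together (correlations of -0.04, -0.03, -0.06 and -0.10), so the numbers were not taken as pairs. Alternatives were other scalings, background corrections, filters, probe rules and variance models, a replicate block and leaving out each array. Promoters were searched in Python 3.11.15 and aligned with Biopython 1.88 (local, match 1, mismatch -1, gap opening -2, gap extension -1).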

Additional observations from a re-analysis of the deposited data

Results flagged for a closer look

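In 48 groups of 4 arrays tested for an extreme array (the members and the named genes), 4 had one by Dixon's criterion, where chance flags about 1 in 20 groups. The gap from the extreme array to its nearest neighbour was set against the group's whole range and compared with Dixon's 95% critical value. Adh4 had Eucommia 4 far above the other Eucommia arrays (2.09 against -0.05 to 0.31, a ratio of 0.833). Adh6 had the same array far above the others (2.64 against -6.17 to -4.70, a ratio of 0.833), but Eucommia 2 and 3 were not above background for that probe. Crabp2 had Eucommia 4 highest in its group with a ratio of 0.907, and Aldh18a1 had Eucommia 2 highest with a ratio of 0.909. Eucommia 4 is also 1 of the 3 arrays with the highest Adh7 and Adh1.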

How the results depend on the processing

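Aldh1b1 was called higher in 22 of 22 alternatives (0.97 to 1.45, highest limma adjusted p 0.00151), including all 8 fits without 1 array (1.29 to 1.45). Not all 22 could move its fold. With 1 probe above background on all 8 arrays, its fold was fixed at 1.35 under the series table, the other filters and the other probe rules. The same holds for Rdh10 and Xdh. Members called higher numbered 2 under quantile normalization, normexp, normexp with quantile normalization and cyclic loess (the last chosen after seeing the data), where Aldh1a1 joined; members called lower numbered 1 under median centring, where Aldh2 joined. Calls over all features, 6180 here, numbered 11817 with median centring, 3726 with probes above background on all 8 arrays and 12794 with no filter. The share of calls that were higher was 62.3% with all 8 arrays required, 42.2% with no filter and 65.2% with cyclic loess. The sign of uncalled members turned in several settings. Median centring and the percentile over detected probes shift all features alike, so signs near 0 turn by construction; for the other settings the cause was not tested. Adh1 was 0.084 under quantile normalization, 0.0057 with the percentile over detected probes and 0.051 under cyclic loess. Aldh2 was 0.092, 0.018 and 0.062 in these settings. Median centring gave -0.17 for Adh5 and -0.24 for Aldh3a2, and normexp gave -0.021 for Aldh3a2. Without 1 array, Adh1 ran from -0.21 to 0.13, Adh4 from -0.78 to 0.18, Adh5 from -0.0011 to 0.18, Aldh2 from -0.061 to 0.026 and Aldh3a2 from -0.040 to 0.073. Adh7 (-0.56 to -0.12 without 1 array) and Aldh9a1 (-0.21 without Eucommia 3 to -0.03 without Control 1) kept their sign and were not called in any of the 22 alternatives. With the replicate block, 5149 features were called, Aldh1b1 stayed called (1.35, adjusted p 0.00151) and no other member was called, while Cbr1 (0.0913), Crabp2 (0.0518), Hacl1 (0.0750), Pecr (0.126) and Gpx1 (0.0853) were not called and Aldh18a1 was (0.0295, adjusted p-values). A slide block could not be fitted, and no member had other probes to compare.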
